A study of Mus musculus with 7 samples.

Results

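The collagen gene family was examined in mouse osteolineage cells of 2 kinds, isolated by flow cytometry from the marrow stroma of bone and measured on Affymetrix arrays. Its members were all genes whose platform symbol has the form Col, a number, the letter a and a number, which gave 36 genes of 12393 measured in all. They were covered by 58 probe sets, and for a gene with several the brightest on average across the 7 arrays was taken. The Ocn+ group (3 arrays) holds cells carrying the Topaz colour of osteocalcin, a protein of mature osteoblasts. The Osx+ group (4 arrays) holds cells carrying the mCherry colour of osterix, a transcription factor of osteoblast precursors encoded by Sp7. Both groups came from mice with both transgenes (OsxCre-mCherry;OcnCre-Topaz), which were 4 to 6 weeks old and had received tamoxifen 6 days before the sort. The labels do not describe the promoters and constructs of the transgenes. Cells of both colours were not analysed here. The labels do not say which arrays share a mouse or whether mice were pooled, so errors and p-values reflect only how far these samples spread, and that spread may be technical.

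Collagens are secreted or membrane-bound proteins whose alpha chains wind into a helix, and each chain is the product of its own gene. Fibrillar collagens form the cables of bone, skin and tendon, and type I is the main protein of bone matrix. Network collagens form sheets such as the basement membrane under endothelium, FACIT collagens sit on the surface of fibrils, and cartilage has a set of its own (types II, IX, X and XI). By this scheme the 36 genes fell into 6 fibrillar, 7 network, 6 FACIT and 7 cartilage genes and 10 others, among them the chains of type VI microfibrils and of types XV and XVIII. The cartilage chains were counted in their own class and not again by structure. A further 9 collagen genes, Col24a1, Col27a1, Col8a2, Col21a1, Col6a4, Col6a5, Col6a6, Col23a1 and Col28a1, were not analysed here.

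The values are log2 signals after RMA, a method that corrects background, makes the arrays' distributions alike and condenses the probes of each set to a single value. The array medians lay between 8.25 and 8.35, and precision is limited by the number of arrays. The osteocalcin genes were not analysed here, and Sp7 lay between 12.26 and 12.93 in Ocn+ cells and between 12.15 and 12.83 in Osx+ cells. Xist, the RNA of the inactive X chromosome, divided the arrays within each group. It stood at 5.47, 12.33 and 12.37 in Ocn+ replicates 1 to 3 and at 4.87, 12.68, 5.79 and 12.96 in Osx+ replicates 1 to 4. Across 12393 genes, the deviations of an Ocn+ array and an Osx+ array from their group means correlated at 0.41 to 0.63 where both were high or both low in Xist, and at -0.30 to -0.68 otherwise. Genes are not independent replicates, and these correlations are a description. Deviations from a group mean cancel out within the group, so positive and negative correlations arise together by construction. Because Xist divided the arrays, differences are also given within the high Xist class (2 Ocn+ and 2 Osx+ arrays). They are given too within the low Xist class (1 Ocn+ and 2 Osx+ arrays), where the Ocn+ side is a single array.

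By their brightest probe sets, the chains of type I collagen, the main bone protein, differed by 0.05 log2 units or less between groups. Their other probe sets differed by -0.10 (Col1a1) and -0.06 (Col1a2), Ocn+ minus Osx+. Group means differed by over 1 log2 unit for Col8a1, Col4a1, Col18a1 and Col22a1, with more signal in Ocn+ cells, and for the cartilage chains Col9a1, Col9a2 and Col9a3 and the fibril-surface chain Col12a1, with less. None of these differences passed the test. In limma, 0 of 36 collagen genes had an adjusted p under 0.05, as had 0 of 12393 genes (0%), and the smallest adjusted p of a collagen gene was 0.729, for Col8a1. By unadjusted p under 0.05 there were 4 of 36 members (11.1%), against 5.31% of all genes. Of these, Col8a1 was higher in Ocn+ cells (1 of 36, or 2.78%, against 3.48% of all genes), and Col12a1, Col19a1 and Col6a3 were lower (3 of 36, or 8.33%, against 1.83%). The arrays of the groups did not overlap for 4 members (11.1%, against 6.9% of all genes). Col8a1 was again the higher one (2.78%, against 4.37%), and Col3a1, Col19a1 and Col6a3 were the lower ones (8.33%, against 2.53%). Leaving out Ocn+ replicate 1 gave a count of 10 of 36, against 13.4% of all genes, and leaving out Osx+ replicate 4 gave 8 of 36, against 9.94%. The smallest 2-sided exact permutation p that 3 against 4 arrays allow is 0.0571.

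**Figure D1:**
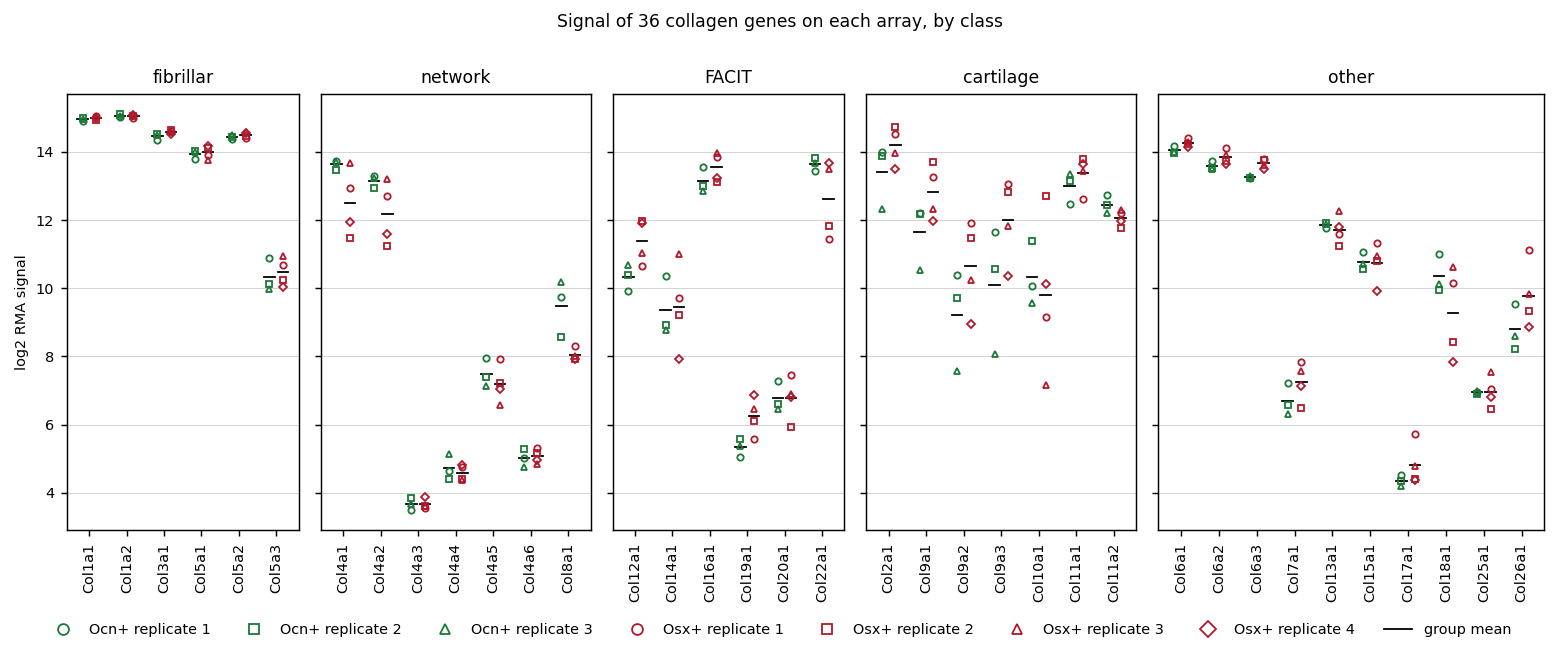
Log2 RMA signal (vertical axis) of 36 collagen genes in 5 classes, with each Ocn+ array in green on the left and each Osx+ array in red on the right of a gene, marker shapes for replicates and a black bar for each group mean. The arrays of Col1a1 and Col1a2 lie almost on top of each other, and those of Col10a1 and Col9a3 are spread over 5.56 and 4.995 log2 units.

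Differences of over 1 log2 unit in either direction were found for 8 of 36 collagen genes (22.2%), against 3.52% of all genes. Among them only Col8a1 stayed over 1 whichever single array was left out (1.11 to 1.92). Without Ocn+ replicate 3 the Col9a1, Col9a2 and Col9a3 differences were -0.62, -0.61 and -0.91, and without Osx+ replicate 2 that of Col4a1 was 0.79. Some of the 8 genes, such as the Col9 chains, moved together across arrays, so they are not 8 separate results. In 14 of 36 members (38.9%) the difference, Ocn+ minus Osx+, was above 0, against 52.7% of all genes. The median difference was -0.06 over the collagen genes and 0.02 over all genes. By class it was -0.06 for the fibrillar, 0.30 for the network, -0.26 for the FACIT and -0.79 for the cartilage genes, and -0.24 for the others. The spread between arrays also differed by class. From the lowest to the highest of the 7 arrays a fibrillar gene covered a median of 0.24 log2 units, a network gene 1.37, a FACIT gene 1.93 and a cartilage gene 3.15, against 1.05 over all genes. The fibrillar genes other than Col5a3 stood at about the 99th to 100th percentile of signal, where compression of differences was not tested. Col5a3, at percentile 69.4, covered 0.98.

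**Figure D2:**
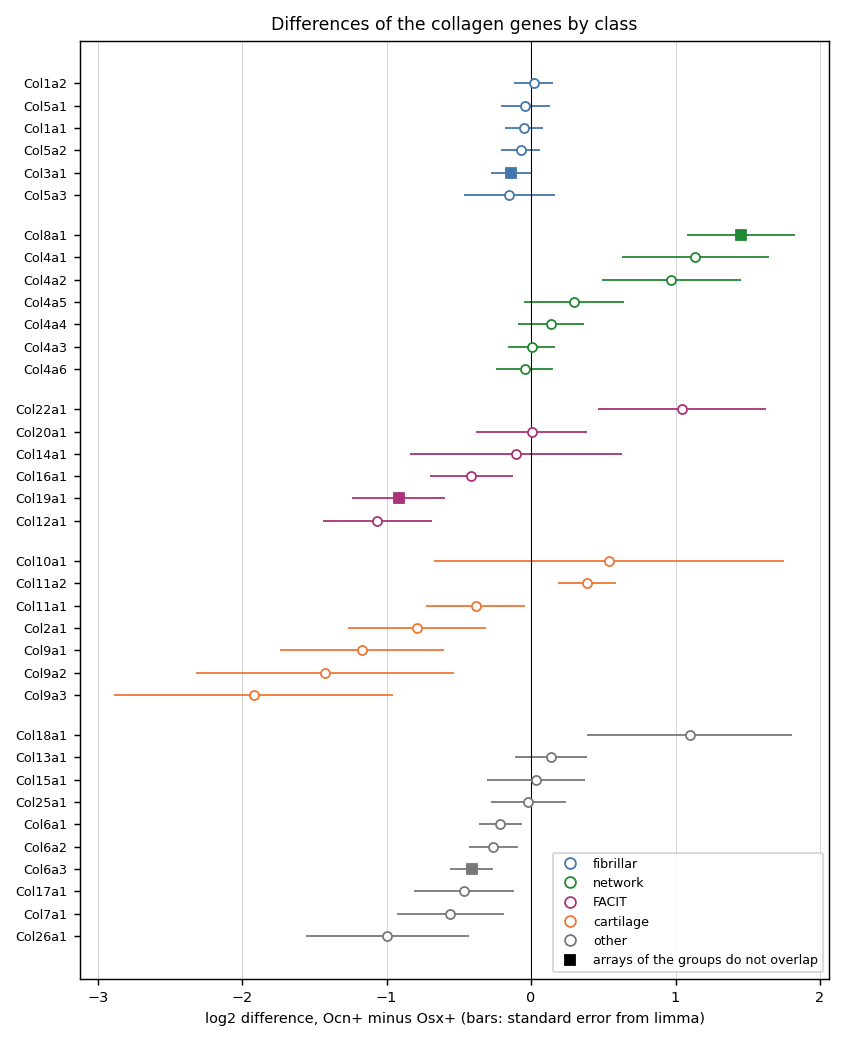
Log2 difference, Ocn+ minus Osx+ (horizontal axis), of each collagen gene by class, with bars for the standard error from limma; filled squares mark the 4 genes whose arrays do not overlap between groups. Of 7 network genes 6 lie right of 0, and of 7 cartilage genes 5 lie left of it.

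In their brightest probe sets the fibrillar chains of bone were nearly level between the groups. Col1a1, which encodes the alpha 1 chain of type I collagen, had signals of 14.91, 14.98 and 14.95 in Ocn+ cells and 15.05, 14.94, 15.03 and 14.98 in Osx+ cells. Col1a2, its partner chain, had 15.01, 15.11 and 15.05 in Ocn+ cells and 14.98, 15.04, 15.07 and 15.07 in Osx+ cells. For both genes the groups overlapped, and all 7 arrays lay within 0.13 log2 units of each other. The differences were -0.05 (SE 0.13) for Col1a1 and 0.02 (SE 0.13) for Col1a2. The sign of the second turned with quantile normalization (-0.01), with median centring (-0.05) and in its other probe set (-0.06). The other probe set of Col1a1 differed by -0.10, with overlapping arrays. On every array the probe sets used for both genes lay between 0.13 and 0.30 log2 units under the brightest probe set. How far the scale compresses differences so close to its upper end was not tested.

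Types III and V assemble into the same fibrils as type I. Col3a1, the type III chain of elastic and early connective tissue, had 14.36, 14.52 and 14.49 in Ocn+ cells and 14.61, 14.64, 14.60 and 14.54 in Osx+ cells. Ocn+ replicate 2 and Osx+ replicate 4 came close to each other without overlap of the groups, and the difference was -0.14 (SE 0.14, limma adjusted p = 0.999). The second Col3a1 probe set also did not overlap and differed by more, -0.50, with 12.85, 13.31 and 13.26 in Ocn+ cells and 13.53, 13.88, 13.52 and 13.63 in Osx+ cells. Col5a1 and Col5a2, the chains that help to set fibril width, differed by -0.04 (SE 0.17) and -0.07 (SE 0.14). The second, dimmer probe set of Col5a2 differed by more, -0.36, with 12.31, 13.18 and 13.13 in Ocn+ cells and 12.92, 13.46, 13.10 and 13.46 in Osx+ cells, which overlapped. Col5a3, a minor type V chain, differed by -0.15 (SE 0.31). All members of this class had a limma adjusted p of 0.999.

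The smallest p of the family was that of a network collagen. Col8a1 encodes a short chain of type VIII collagen, found in vessel walls and in the sheet behind the cornea. It had signals of 9.73, 8.56 and 10.19 in Ocn+ cells and 8.30, 7.92, 8.01 and 7.91 in Osx+ cells. The 4 Osx+ arrays were close together and all lay under the 3 Ocn+ arrays, which were spread over 1.63 log2 units. The difference was 1.45 (SE 0.37), or 2.74-fold, and did not pass (limma adjusted p = 0.729). Leaving out Ocn+ replicate 3, the brightest array, gave 1.11, and the difference was 1.46 among the high Xist arrays and 1.57 among the low ones. Its second probe set had 7.81, 7.98 and 10.03 in Ocn+ cells and 6.20, 7.65, 5.36 and 7.39 in Osx+ cells, again without overlap, for a difference of 1.96. The promoter window of Col8a1 in RefSeq (GRCm38.p6, chr16:57754688-57754987, minus strand) is shown because this gene had the smallest p of the family, with the GC box letters GGGCGG or their reverse complement in capitals, 4 matches in all.
Col8a1: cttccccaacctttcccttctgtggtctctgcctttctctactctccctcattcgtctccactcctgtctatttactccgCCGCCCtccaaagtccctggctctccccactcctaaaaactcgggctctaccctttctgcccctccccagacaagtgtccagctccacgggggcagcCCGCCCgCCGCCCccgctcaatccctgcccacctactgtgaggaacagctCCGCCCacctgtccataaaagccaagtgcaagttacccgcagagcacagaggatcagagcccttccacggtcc

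Type IV collagen is the network of basement membranes, and its alpha 1 and alpha 2 chains, found in nearly all of them, are encoded by the neighbouring genes Col4a1 and Col4a2. Col4a1 had signals of 13.73, 13.47 and 13.71 in Ocn+ cells and 12.93, 11.46, 13.67 and 11.94 in Osx+ cells. Col4a2 had 13.29, 12.94 and 13.22 in Ocn+ cells and 12.70, 11.23, 13.19 and 11.58 in Osx+ cells. Both followed the same order among the Osx+ arrays, where replicate 3 lay level with Ocn+ cells and replicates 2 and 4 lay lowest. The difference was 1.14 (SE 0.51, limma adjusted p = 0.969) for Col4a1 and 0.97 (SE 0.48, limma adjusted p = 0.999) for Col4a2. The second probe set of Col4a1 differed by 1.49 without overlap, its highest Osx+ array being 12.51 and its lowest Ocn+ array 12.58. Within the high Xist class Col4a1 differed by 1.89 and Col4a2 by 1.67, and within the low class by 0.43 and 0.34. With the Xist class as a term the differences were 1.31 (SE 0.36) and 1.14 (SE 0.32). With Osx+ replicates 2 and 4 left out, an alternative chosen after seeing the data, they were 0.34 and 0.20. Those are the high Xist arrays of the Osx+ group, so this alternative compares Ocn+ arrays of both Xist classes with low Xist Osx+ arrays only.

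The promoter windows of Col4a1 and Col4a2 are shown because the genes are transcribed away from each other and their signals followed the same order among the Osx+ arrays. Both are from RefSeq (GRCm38.p6) and run 5′ to 3′ along their gene, Col4a1 at chr8:11312777-11313076 on the minus strand and Col4a2 at chr8:11312555-11312854 on the plus strand. They overlap by 78 bases, and capitals mark CCAAT or its reverse complement, 1 match in each window.
Col4a1: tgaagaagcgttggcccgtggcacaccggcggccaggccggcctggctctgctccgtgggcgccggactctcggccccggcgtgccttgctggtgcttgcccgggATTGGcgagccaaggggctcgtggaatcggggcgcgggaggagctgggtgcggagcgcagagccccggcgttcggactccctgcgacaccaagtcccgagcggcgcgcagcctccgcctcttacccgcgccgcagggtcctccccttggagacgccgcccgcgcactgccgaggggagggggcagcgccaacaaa
Col4a2: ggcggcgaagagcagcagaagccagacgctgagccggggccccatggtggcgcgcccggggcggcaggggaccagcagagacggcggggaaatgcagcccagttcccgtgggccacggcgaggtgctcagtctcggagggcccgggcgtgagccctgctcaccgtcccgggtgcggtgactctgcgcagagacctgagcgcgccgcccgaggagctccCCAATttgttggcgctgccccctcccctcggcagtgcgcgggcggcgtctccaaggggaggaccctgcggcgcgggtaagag
Such windows of 300 bases were found for 27 of 36 members, with 30 windows in all. CCAAT on either strand was in 12 of the 30 (40%), against 37.4% of 32851 windows of all genes. GGGCGG on either strand was in 17 of 30 (56.7%), against 35.7%. ACAAAG or ACAATG, the core letters that Sox factors of cartilage recognize, stood on either strand in 4 of 30 windows (13.3%), against 28.6%. Of 6 windows of cartilage chains 1 had them, that of Col10a1, and no window was found for Col2a1 or Col9a3. These shares were not adjusted for GC content. It was 74.0% for Col4a1, 73.7% for Col4a2 and 60.3% for Col8a1, against a median of 52.7% over all windows. A match is a run of letters and not a bound site.

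The other type IV chains, found in fewer basement membranes such as that of the kidney, had differences between -0.04 and 0.30 in their brightest probe sets. Col4a5, with a signal between 6.57 and 7.94, differed by 0.30 (SE 0.35), and its second probe set by 0.82, with means of 7.33 in Ocn+ cells and 6.51 in Osx+ cells and overlapping arrays. Col4a3 and Col4a4 differed by 0.00 (SE 0.16) and 0.14 (SE 0.23). Col4a6 had probe sets of opposite sign, at -0.04 and 0.09. Across the family 19 genes had more than 1 probe set, and in 4 of them, Col4a6, Col1a2, Col14a1 and Col20a1, the signs disagreed.

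Types XV and XVIII, which link basement membranes to the matrix around vessels, differed from each other in pattern. Col18a1, whose C-terminal fragment is endostatin, had 10.997, 9.94 and 10.14 in Ocn+ cells and 10.15, 8.43, 10.62 and 7.84 in Osx+ cells. Osx+ replicates 2 and 4 were again the lowest arrays, as for Col4a1 and Col4a2. The difference was 1.10 (SE 0.71, limma adjusted p = 0.999). It was 1.91 in the high and 0.61 in the low Xist class, and 1.39 (SE 0.32) with that class as a term. Leaving out each array in turn gave 0.62 to 1.55. Without Osx+ replicates 2 and 4 together, which leaves only low Xist arrays in that group, the difference was -0.03. Col15a1 had 11.06, 10.55 and 10.71 in Ocn+ cells and 11.32, 10.78, 10.94 and 9.91 in Osx+ cells. These groups overlapped throughout, with a difference of 0.03 (SE 0.34), which was -0.24 without Osx+ replicate 4 and -0.03 with median centring.

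Endothelial markers had higher means in Ocn+ cells too. All 10 (Cdh5, Pecam1, Kdr, Tie1, Tek, Emcn, Plvap, Robo4, Esam and Cldn5) had a difference above 0, with a median of 2.66, and 0 of them passed over all genes. The mean log2 signal of the list lay between 9.97 and 10.51 in Ocn+ cells and between 6.06 and 9.39 in Osx+ cells. Among the Osx+ arrays replicate 3 had the highest mean (9.39) and replicates 2 (6.06) and 4 (6.99) the lowest, the order seen in Col4a1. The Ocn+ arrays did not share an order with it. Their endothelial means were 9.97, 10.12 and 10.51, lowest in replicate 1, where Col4a1, Col4a2 and Col18a1 were highest. The lowest value of any marker was 5.11, for Tie1 and Robo4 in Osx+ replicate 2. The part of endothelial RNA in the type IV, type VIII and type XVIII differences was not tested. In sorted bulk samples more cells of a type and more RNA per cell cannot be told apart. Of 6 markers of mural and smooth muscle cells 3 had a difference above 0, with a median of 0.01. Their list mean ranged from 9.86 to 11.11 in Osx+ cells. In Ocn+ replicates 1 to 3 it was 10.81, 10.20 and 10.41, the order of Col4a1, Col4a2 and Col18a1 there. Among the Osx+ arrays replicate 3 was again highest (11.11), then replicate 1 (10.36), with replicates 2 (9.89) and 4 (9.86) lowest. The part of mural RNA in the collagen differences was not tested either.

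**Figure D3:**
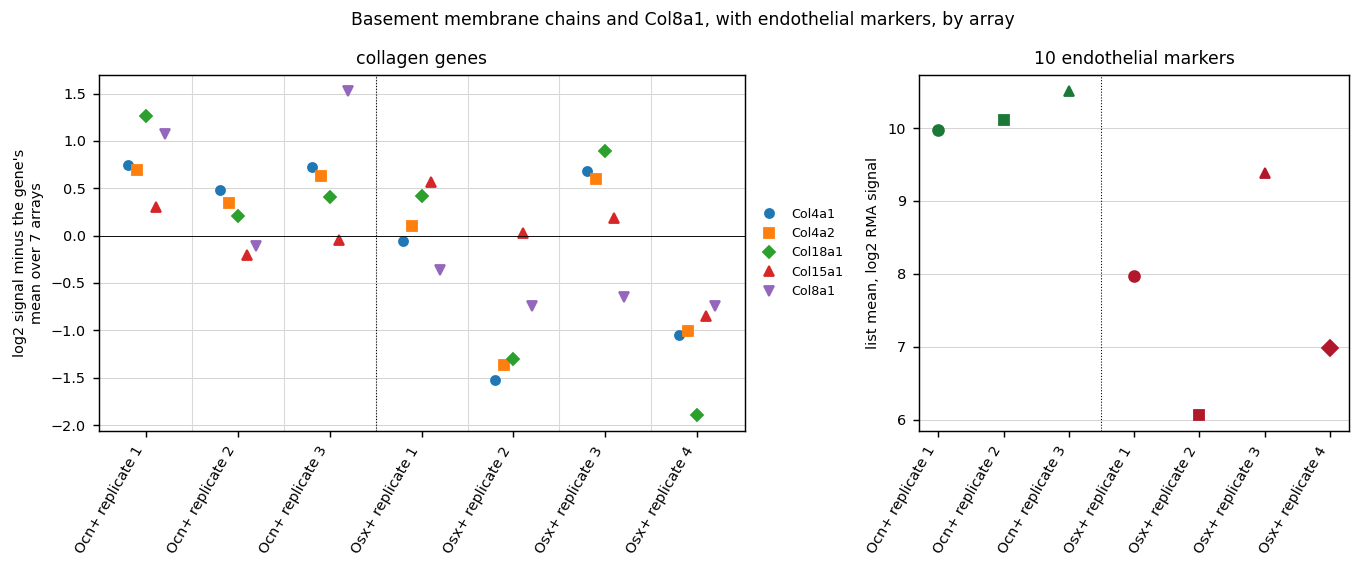
Left, log2 signal of 5 collagen genes on each array minus the gene's mean over 7 arrays; right, mean log2 RMA signal of 10 endothelial markers on the same arrays, with Ocn+ left and Osx+ right of the dotted line. Col4a1, Col4a2 and Col18a1 are low in Osx+ replicates 2 and 4, where the endothelial mean is 6.06 and 6.99. Col8a1 is below its own mean in every Osx+ array and also in Ocn+ replicate 2.

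Cartilage collagens were lower in Ocn+ cells on average, with wide spreads in both groups. Col2a1, the fibrillar chain of cartilage, had signals of 13.99, 13.86 and 12.34 in Ocn+ cells and 14.53, 14.74, 13.97 and 13.50 in Osx+ cells. Col9a1 had 12.21, 12.19 and 10.53 in Ocn+ cells and 13.27, 13.69, 12.33 and 11.97 in Osx+ cells. It is a chain of type IX, which decorates type II fibrils. Col9a2, another such chain, had 10.38, 9.70 and 7.58 in Ocn+ cells and 11.92, 11.47, 10.24 and 8.96 in Osx+ cells. Col9a3, the last of them, had 11.65, 10.55 and 8.07 in Ocn+ cells and 13.06, 12.82, 11.81 and 10.35 in Osx+ cells. In each of these 4 genes the lowest array was Ocn+ replicate 3, the highest 2 were Osx+ replicates 1 and 2, and the groups overlapped.

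The differences were -0.79 (SE 0.48) for Col2a1, -1.17 (SE 0.57) for Col9a1, -1.43 (SE 0.89) for Col9a2 and -1.92 (SE 0.97) for Col9a3, each with a limma adjusted p of 0.999. Their size depended on single Ocn+ arrays: without Ocn+ replicate 3 they were -0.26, -0.62, -0.61 and -0.91, and without Ocn+ replicate 1 they were -1.09, -1.45, -2.01 and -2.70. With Ocn+ replicate 3 and also Osx+ replicate 2, the array of highest mean over the 7 cartilage genes, left out, an alternative chosen after seeing the data, they were -0.08, -0.33, -0.33 and -0.64. Within the high Xist class they were -1.02, -1.47, -1.58 and -2.27, and within the low class -0.26, -0.59, -0.70 and -0.79.

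The other cartilage chains did not share this pattern. Col10a1, the chain of hypertrophic chondrocytes, had 10.05, 11.37 and 9.55 in Ocn+ cells and 9.16, 12.71, 7.15 and 10.12 in Osx+ cells. The Osx+ arrays alone spanned 5.56 log2 units, or 47.2-fold, the widest range over the 7 arrays of any collagen gene, and enclosed the Ocn+ arrays. The difference of 0.54 (SE 1.21) turned to -0.34 when Osx+ replicate 3 was left out and was 1.51 when Osx+ replicate 2 was. It was -0.95 in the high and 1.89 in the low Xist class. Col11a1 encodes the alpha 1 chain of the type XI core of cartilage fibrils and is also made outside cartilage. Its signals were 12.47, 13.15 and 13.34 in Ocn+ cells and 12.62, 13.78, 13.45 and 13.65 in Osx+ cells, which overlapped, for a difference of -0.38 (SE 0.34). Col11a2, its partner, had 12.72, 12.43 and 12.21 in Ocn+ cells and 12.21, 11.78, 12.29 and 11.98 in Osx+ cells. It was the second cartilage chain with a difference above 0, at 0.39 (SE 0.20), and its groups overlapped.

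Chondrocyte genes other than collagens were mostly lower in Ocn+ cells too. Of 11 measured markers 9 had a difference below 0, with a median of -0.70, and 0 passed over all genes. The list mean was 10.42, 10.58 and 8.97 in Ocn+ cells and 11.001, 11.89, 10.22 and 10.18 in Osx+ cells. Ocn+ replicate 3 was the lowest array and Osx+ replicates 1 and 2 the highest, as in Col2a1. Acan, the large proteoglycan of cartilage, was measured at 12.91 to 13.46 in Ocn+ cells and 13.51 to 14.28 in Osx+ cells, without overlap. Sox9, the transcription factor that chondrocytes need, was measured at 11.98 to 12.15 in Ocn+ cells and 12.03 to 12.85 in Osx+ cells. Signals of both genes were found in every array of both groups. The part of chondrocyte RNA in the differences of the cartilage collagens was not tested.

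**Figure D4:**
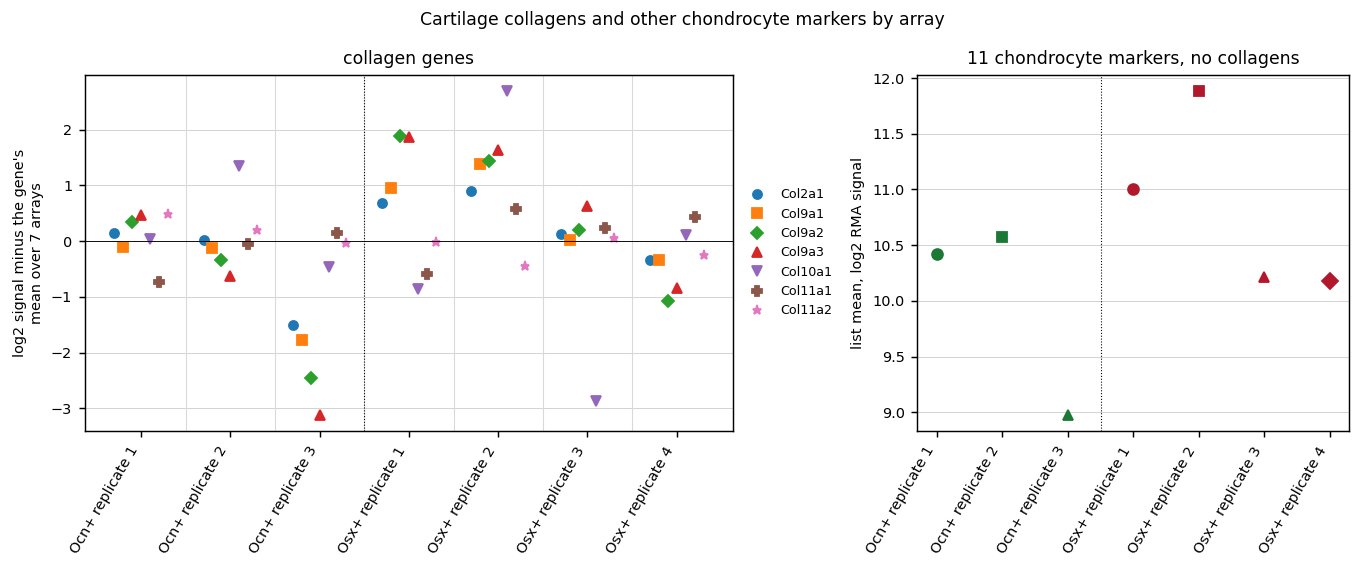
Left, log2 signal of the 7 cartilage collagens on each array minus the gene's mean over 7 arrays; right, mean log2 RMA signal of 11 chondrocyte markers that are not collagens, with Ocn+ left and Osx+ right of the dotted line. Col2a1 and the Col9 chains are lowest in Ocn+ replicate 3, where the marker mean is 8.97, and Col10a1 ranges from 7.15 to 12.71 among Osx+ arrays.

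FACIT collagens differed in both directions. Col12a1, a chain on fibrils of dense tissue such as tendon and periosteum, had 9.93, 10.39 and 10.67 in Ocn+ cells and 10.66, 11.97, 11.03 and 11.90 in Osx+ cells. The groups overlapped at a single point, where Osx+ replicate 1 (10.664) lay just under Ocn+ replicate 3 (10.666). The difference was -1.06 (SE 0.38), or 2.09-fold, with a limma adjusted p of 0.888. It was -1.41 in the high and -0.92 in the low Xist class, and with that class as a term it was -1.21 (SE 0.17, limma adjusted p = 0.0986), and over all alternatives its adjusted p ranged from 0.0535 to 1. With Osx+ replicates 2 and 4, the high Xist arrays of that group, left out the difference was -0.52. Of 5 markers of tendon and fibrous tissue 3 had a difference below 0, with list means of 10.84 to 11.88 in Ocn+ cells and 10.74 to 11.88 in Osx+ cells. The smallest p of this list was that of Dpt, which differed by -1.18 (SE 0.21, limma adjusted p = 0.607) without overlap. Tnmd (0.59) and Pi16 (0.28) were the 2 with a difference above 0. The part of such tissue in the Col12a1 difference was not tested.

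Col19a1, a rare FACIT chain of basement membrane zones, had 5.06, 5.57 and 5.38 in Ocn+ cells and 5.57, 6.09, 6.47 and 6.87 in Osx+ cells. Ocn+ replicate 2 and Osx+ replicate 1 both stood near 5.57, and the groups just failed to overlap. The difference was -0.92 (SE 0.32, limma adjusted p = 0.888), and it was -1.01 in the high and -0.96 in the low Xist class. Its signal is dim, and the second Col19a1 probe set, between 3.78 and 4.24 on all arrays, differed by -0.15. Whether signals so dim lie above background was not tested, since detection calls were not used here.

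Col22a1, a chain found where muscle meets tendon and in other tissue junctions, had 13.44, 13.83 and 13.68 in Ocn+ cells and 11.45, 11.82, 13.50 and 13.66 in Osx+ cells. Osx+ replicates 3 and 4 lay level with the Ocn+ arrays and replicates 1 and 2 lay lower. The difference was 1.04 (SE 0.58, limma adjusted p = 0.999), 1.02 in the high and 0.96 in the low Xist class, and 1.10 in the second probe set. Col14a1 and Col16a1, both bound to fibril surfaces, differed by -0.10 (SE 0.73) and -0.41 (SE 0.29). The second probe set of Col14a1 had the opposite sign, at 0.33. Col20a1 stood at 6.44 to 7.28 in Ocn+ cells and 5.94 to 7.47 in Osx+ cells, with a difference of 0.00 (SE 0.38).

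Type VI collagen forms beaded microfibrils around cells, from the chains Col6a1, Col6a2 and Col6a3. Col6a3 had 13.24, 13.22 and 13.29 in Ocn+ cells and 13.79, 13.76, 13.62 and 13.48 in Osx+ cells. The Ocn+ arrays lay within 0.06 log2 units of each other and under every Osx+ array. The difference was -0.41 (SE 0.15, limma adjusted p = 0.895), it ranged from -0.47 to -0.37 when each array was left out in turn, and it was -0.37 in the high and -0.46 in the low Xist class. Col6a1, with 14.18, 13.96 and 14.01 in Ocn+ cells and 14.40, 14.22, 14.29 and 14.13 in Osx+ cells, differed by -0.21 (SE 0.15), and Col6a2 by -0.26 (SE 0.17). All chains of the trio had lower means in Ocn+ cells, and the arrays of Col6a1 and Col6a2 overlapped.

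The remaining genes were Col7a1 (anchoring fibrils under epithelium), Col13a1, Col17a1 and Col25a1 (chains with a membrane span) and Col26a1. Their differences ran from -0.997 for Col26a1 (SE 0.56) to 0.14 for Col13a1 (SE 0.25). Col26a1 had 9.53, 8.23 and 8.61 in Ocn+ cells and 11.11, 9.32, 9.83 and 8.87 in Osx+ cells. Its highest array was Osx+ replicate 1, and the groups overlapped. Col7a1 differed by -0.56 (SE 0.37), Col17a1 by -0.46 (SE 0.34) and Col25a1 by -0.02 (SE 0.26), and the arrays of the groups overlapped in each of these 5 genes. Of the 36 members 5 had a mean signal under the 25th percentile of all genes.

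**Figure D5:**
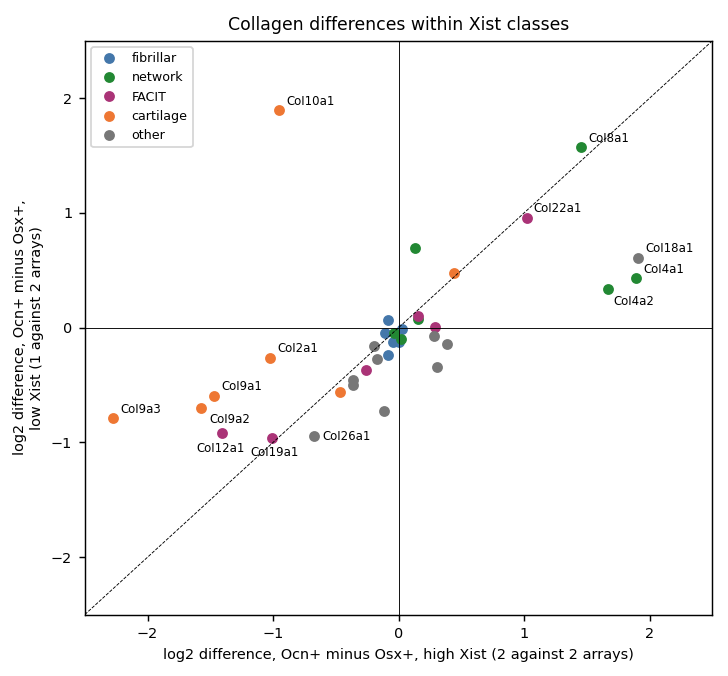
Log2 difference, Ocn+ minus Osx+, of each collagen gene among high Xist arrays (horizontal axis, 2 Ocn+ and 2 Osx+) and among low Xist arrays (vertical axis, 1 Ocn+ and 2 Osx+), coloured by class, with the line of equal differences dashed. The sign is the same in 28 of 36 genes, and the share over all genes was not counted. Col8a1, Col22a1 and Col19a1 lie near the line, and Col10a1 is among the genes of opposite signs.

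Genes that make, bind and break down collagen were counted from lists of 51 genes, of which 38 were measured. By limma 0 of 38 passed, and by unadjusted p under 0.05 there were 6 of 38, against 5.31% of all genes, of which 4 were higher (3.48% of all genes) and 2 lower (1.83%) in Ocn+ cells. Of 23 genes of synthesis and crosslinking 11 had a difference above 0, with a median of -0.00090, beside 0.02 over all genes. The smallest p among them was for P4ha2, a catalytic subunit of the enzyme that hydroxylates prolines of the chains. It had 12.05, 12.21 and 11.93 in Ocn+ cells and 12.74, 12.49, 12.25 and 12.51 in Osx+ cells, a difference of -0.43 (SE 0.17, limma adjusted p = 0.935) with no overlap. Serpinh1, the collagen chaperone of the endoplasmic reticulum, differed by 0.06 (SE 0.14) and was chosen after its value was seen.

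Among 6 measured collagen receptors 3 had an unadjusted p under 0.05, against 5.31% of all genes, and the list's median difference was -0.03. Itga2, an integrin subunit that binds collagen, differed by 0.94 (SE 0.30, limma adjusted p = 0.869), at dim signals of 4.90 to 5.88 in Ocn+ cells and 3.93 to 4.72 in Osx+ cells that may not lie above background. Mrc2, an endocytic receptor that takes up collagen fragments, had 12.81, 12.75 and 12.68 in Ocn+ cells and 12.003, 11.70, 12.64 and 12.19 in Osx+ cells. Its difference was 0.61 (SE 0.24, limma adjusted p = 0.935), and its groups did not overlap. Lair1, an inhibitory collagen receptor of leukocytes, differed by -1.11 (SE 0.46), and 6 of 7 macrophage markers were lower in Ocn+ cells, with list means of 9.32 to 10.78 in Ocn+ cells and 10.81 to 12.39 in Osx+ cells. The part of macrophage RNA in the Lair1 difference was not tested.

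Of 9 genes of collagen breakdown 4 had a difference above 0, with a median of -0.03. Ctsk, the collagen-cleaving cathepsin of osteoclasts, had 13.33, 13.37 and 13.64 in Ocn+ cells and 12.41, 12.45, 13.14 and 12.37 in Osx+ cells. The groups did not overlap, and the difference was 0.86 (SE 0.23, limma adjusted p = 0.731). Mmp9, a gelatinase, differed by 1.61 (SE 0.51, limma adjusted p = 0.869), again without overlap. The neutrophil list, whose cells also make Mmp9, had means of 11.41 to 11.60 in Ocn+ cells and 7.33 to 10.98 in Osx+ cells. Among the Osx+ arrays Mmp9 was highest in replicate 3 (13.41), as Ctsk was. The neutrophil mean was highest in replicate 2 (10.98) and stood at 8.12 in replicate 3. All of these were lowest in replicate 4. The part of neutrophils or of other cells in the Mmp9 difference was not tested. Mmp8, the third by p and a neutrophil collagenase, differed by 0.27 (SE 0.31).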

How the data were processed

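RNA of 3 Ocn+ and 4 Osx+ samples was extracted with Trizol, amplified by the NuGEN Ovation V2 method and labelled with biotin, per the labels' protocols. Per the submitters' processing notes, RMA produced the deposited log2 signals. The sources used here give neither its version nor a genome build. The table held 22690 probe sets, 64 of them controls; 20380 had 1 gene symbol in the platform annotation, 691 several and 1555 none listed. Symbols were updated by Entrez identifier for 20351. The groups were compared in limma 3.58.1 under R 4.3.3 (lmFit, eBayes, 2-sided) on 12393 genes, with p-values adjusted by Benjamini-Hochberg across all of them and called under 0.05. The fit was tested on simulated data. Lists were described by counts and medians, with no test of a list. Members, classes and lists were chosen with earlier results of these data known. Named genes were the main bone, cartilage and basement membrane chains, each member with an unadjusted p under 0.05 or without overlap, and up to 3 genes of smallest p per pathway list; the other members are given with their differences. Col22a1, Col26a1, Col6a1, Acan, Sox9, Dpt, Tnmd and Pi16 were given in detail after their values were seen. Marker lists for osteoblasts and for tendon and fibrous tissue were also counted: 4 of 5 and 2 of 5 measured genes had a difference above 0, with medians of 0.18 and -0.18.

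Replicate numbers were checked for pairing: the deviations of same-numbered arrays correlated at 0.63, 0.45 and -0.30 for numbers 1, 2 and 3, so the numbers were not taken as pairs. Arrays were classed from the data by whether Xist lay above a log2 signal of 8. Alternatives were the replicate block, leaving out arrays, filters on dim genes, quantile normalization, array weights, median centring, a robust trended prior, other choices of probe set, other thresholds, structure classes and the Xist class.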

Additional observations from a re-analysis of the deposited data

How the results depend on the processing

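In limma 0 collagen genes had an adjusted p under 0.05 under each alternative run, and at an unadjusted p under 0.05 there were 4. Among the pathway genes 1 passed with array weights (Ctsk, difference 0.97, limma adjusted p = 0.0491), with 97 of all genes called, and 6 at an unadjusted p, against 0 under the other alternatives. The lowest weight was 0.236 (Osx+ replicate 1) and the highest 6.02 (Ocn+ replicate 2). The count of members whose arrays do not overlap, 4, was 5 to 10 when an array was left out (9.46% to 15.1% of all genes), where fewer arrays make overlap rarer. It was 8 in the arrays of the replicate block, which leaves out Osx+ replicate 4 (9.94% of all genes), 19 within the high Xist class (55.2%), 24 within the low class (59.7%), 15 without Osx+ replicates 2 and 4 (24.1%), 7 without Ocn+ replicate 3 and Osx+ replicate 2 (13.6%), both chosen after seeing the data, and 2 with genes dimmer than the median excluded (7.6%). The replicate block changed no call. Its differences for Col2a1, Col9a1, Col9a2 and Col9a3 were -1.02, -1.45, -1.99 and -2.47, the same as on leaving out Osx+ replicate 4 without a block.

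The FACIT median of -0.26 ranged from -0.61 to -0.052 when an array was left out. It was -0.57 with the replicate block, -0.92 by structure alone and -0.60 without Osx+ replicates 2 and 4. Leaving out those arrays leaves only low Xist arrays in the Osx+ group. The cartilage median of -0.79 ranged from -1.09 without Ocn+ replicate 1 to -0.56 without Ocn+ replicate 3, and was -0.44 with array weights, -1.02 with the replicate block and -0.33 without Ocn+ replicate 3 and Osx+ replicate 2. The network median of 0.30 ranged from 0.092 without Osx+ replicate 3 to 0.54 without Osx+ replicate 1. It was 0.17 with quantile normalization, 0.16 within the high Xist class, 1.05 under both filters on dim genes, 0.56 with the mean of all probe sets and 0.82 with the probe set of largest variance. The fibrillar median of -0.06 was -0.13 with median centring and with the probe set of largest variance. The causes were not tested, apart from the fewer genes that the filters leave and the array that the replicate block leaves out.

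Some differences turned their sign, among them that of Col10a1 (0.54, SE 1.21) and that of Col18a1 (1.10, SE 0.71). Col18a1 kept its sign when each array was left out in turn (0.62 to 1.55) and turned without Osx+ replicates 2 and 4. When an array was left out, Col1a2 ranged from -0.011 to 0.039, Col5a1 from -0.11 to 0.038, Col15a1 from -0.24 to 0.23 and Col10a1 from -0.34 to 1.51. Col1a2 was -0.012 with quantile normalization and within the low Xist class, -0.047 with median centring, -0.022 with the mean of probe sets and -0.061 with the probe set of largest variance. Col5a1 was 0.020 with the replicate block and 0.11 without Osx+ replicates 2 and 4. Col15a1 was -0.24 with the replicate block, -0.031 with median centring, -0.076 within the low Xist class and -0.36 without Osx+ replicates 2 and 4, where Col18a1 was -0.029. Within the high Xist class Col1a1 was 0.0050 and Col10a1 -0.95. Dim signals have no detection calls here, which limits Col4a3, Col4a4, Col4a6, Col17a1, Col19a1 and Itga2.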
